A study of Mus musculus with 38 samples.

Results

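This comparison sets WT Tcf21 lineage cells of mouse visceral fat after 12 weeks of high-fat diet against the same kind of cells after 1 week of it. It was defined by the sample titles and by the column names of the deposited WT table, which give 5 RNA-seq libraries at 12 weeks and 4 at 1 week, 9 of the 29 RNA-seq libraries and of the 38 libraries in the series. No measured value entered that choice. The cells carry a tamoxifen-activated Cre recombinase (MerCreMer), were sorted by flow cytometry, and 5000 of them went into each library. The diet, a Teklad high-fat diet, was begun at 6 weeks of age in both groups, so the mice were about 18 weeks old in the 12-week group and about 7 weeks old in the 1-week group. Age and length of diet therefore cannot be told apart, and mice of these ages on a regular diet were not analysed here. Tamoxifen doses are listed for adult and for neonatal mice without saying which applies here. The labels do not give the promoter that drives MerCreMer or the marker used in the sort. They do not say whether replicates are separate animals either. The p-values therefore rest on a spread between libraries that may be technical. That spread was estimated within the 8 groups of all 29 RNA-seq libraries and not from the 9 compared libraries alone.

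Visceral fat holds fibroblast-like progenitors that build the tissue's collagen-rich matrix and can turn into adipocytes. One class of them, marked by Dpp4 and Pi16, lies in the fibrous sheets around the fat lobules and is thought to supply more committed preadipocytes. In obesity, macrophages, mast cells and lymphocytes enter the fat, and macrophages around dying adipocytes take up a lipid-associated state known for Trem2, Spp1, Gpnmb and Lipa. Tcf21 is a basic helix-loop-helix transcription factor of visceral mesenchymal cells that marks the sorted lineage.

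The genotype field of the labels reads Tcf21 KO for 7 of the 9 libraries titled WT (3 of 5 at 12 weeks and 4 of 4 at 1 week), while titles and column names read WT for all 9, and the groups follow the titles. Tcf21 itself (ENSMUSG00000045680, chromosome 10, 22817281 to 22820174 in mm10, coordinates as the deposited table gives them) was present in every library. It read 13.5, 10.2, 5.86, 7.13 and 10.1 TPM in 12-week replicates 1 to 5 and 13.6, 47.4, 11.3 and 19.98 TPM in 1-week replicates 1 to 4, the order used for every list of values below. TPM is a length-corrected share of a library's transcripts. The 1-week replicate 2 stood highest and the groups overlapped (log2 change -1.04 ± 0.41, limma adjusted p = 0.143). Fibroblast genes were among the most abundant at both times: Dcn, the matrix proteoglycan decorin, read 10758, 15036, 15336, 14674 and 12464 TPM at 12 weeks and 22165, 15354, 15135 and 17497 TPM at 1 week. The 13 stromal progenitor markers summed to 39355 to 54821 TPM at 12 weeks and 60963 to 64475 TPM at 1 week. Macrophage markers summed to 3476 to 7161 TPM and 416 to 621 TPM, and all measured immunoglobulin genes to 4949.5 to 30152 TPM and 32.3 to 1152 TPM. In such bulk libraries more or fewer cells of a type and more or less RNA per cell cannot be told apart. Each column of the table summed to 944177 to 954668 TPM over the 9 libraries and 11801 to 12511 genes reached 1 TPM, and read depth is unknown because TPM keeps none.

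Of 15659 genes tested, 554 were higher after 12 weeks (3.54% of the genes tested) and 374 were lower (2.39%), by limma with Benjamini-Hochberg adjusted p below 0.05, making 928 in either direction (5.93%), and 2838 genes had an unadjusted p below 0.05. A gene that passed this test in either direction is said here to have risen or fallen, and log2 changes are differences of mean log2(TPM + 1) given with their standard error. Of the called genes, 297 of the 554 higher genes and 74 of the 374 lower genes changed by 2 log2 units (4-fold) or more. The groups did not overlap for 441 of the higher and 310 of the lower genes, where 4.97% of all tested genes had groups apart with 12 weeks higher and 5.58% with 12 weeks lower. Median-ratio scaling of the columns moved the split from 554 higher and 374 lower (59.7% higher) to 645 higher and 265 lower (70.9% higher). With array weights, which give each library its own precision, 915 were higher and 967 lower (48.6% higher), and a fit of the 9 compared libraries alone gave 493 and 470 (51.2% higher). With the 7 libraries whose genotype field reads Tcf21 KO alone standing for the WT groups, 352 genes were higher and 146 lower. Leaving out 12-week replicate 1 or 1-week replicate 2 left 242 or 244 lower genes. The median change of all tested genes was -0.05. Genes were ranked by the size of their change among those that passed, had groups that did not overlap and reached a mean of 10 TPM in the higher group, leaving out predicted genes, immunoglobulin and T cell receptor genes, pseudogenes and mitochondrial genes, and the first 15 in each direction are named below.

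**Figure D1:**
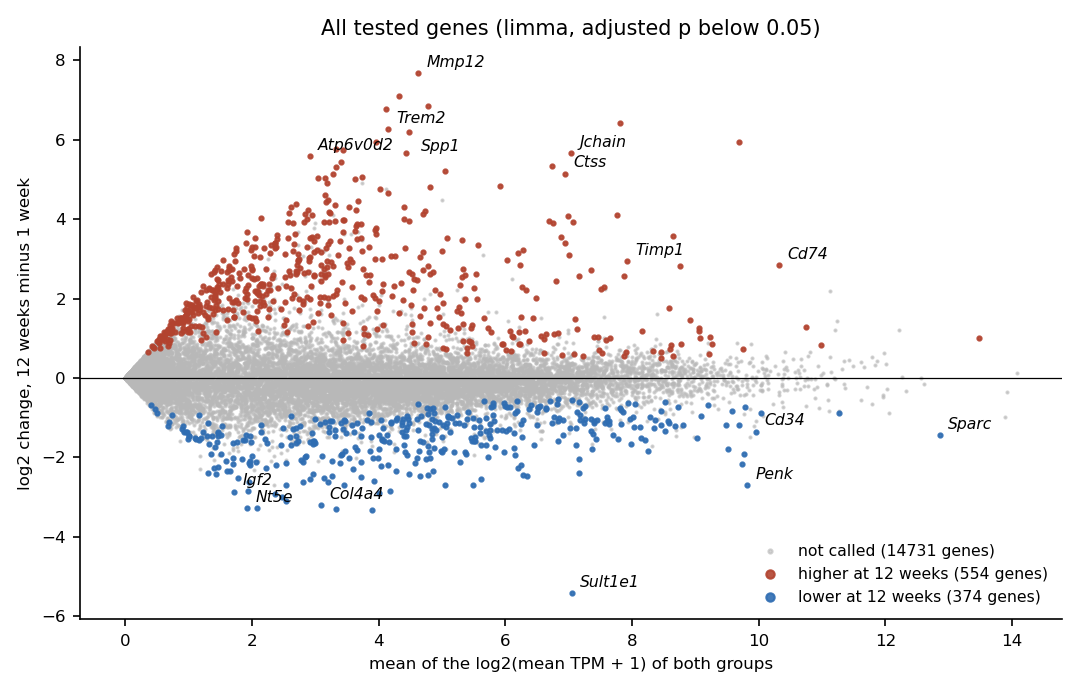
Change of each tested gene (12 weeks minus 1 week of high-fat diet, log2(TPM + 1) scale) against its mean level, with the 554 genes that rose in red and the 374 that fell in blue. The genes that rose reach from low to high levels with changes up to 7.68 (Mmp12), while Sult1e1 lies apart at the bottom at -5.41.

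Sult1e1, which fell, and Mmp3, which rose, are shown first with their promoters because ATAC-seq peaks were called at their start sites at 1 of the 2 times only. The strength of the signal was not compared. They are not typical of their directions. Start sites with a peak in both 1-week libraries alone were found for 3 of 281 genes that fell (1.07%, against 0.424% of all tested genes). Those with a peak in both 12-week libraries alone were found for 37 of 386 genes that rose (9.59%, against 0.566%). Sult1e1 (ENSMUSG00000029272, chromosome 5, 87575969 to 87591594, mm10) encodes oestrogen sulfotransferase, which inactivates oestrogens. It had the steepest decrease of the genes ranked, at 1935, 392, 345 and 475 TPM after 1 week and 9.70, 6.08, 2.88, 58.02 and 29.6 TPM after 12 weeks (-5.41 ± 0.80, adjusted p = 3.45e-05). The lowest 1-week library stood well above the highest 12-week library, replicate 4. Mmp3 (ENSMUSG00000043613, chromosome 9, 7445822 to 7455975, mm10) encodes stromelysin-1, a secreted protease that cuts matrix proteoglycans and other proteases. It rose from 13.2, 47.5, 14.7 and 55.4 TPM to 918, 148, 276, 215 and 477 TPM (3.56 ± 0.60, adjusted p = 0.000222), with 12-week replicate 1 highest and no overlap. ATAC-seq, which marks open chromatin, had 2 WT libraries at each diet time. At the Sult1e1 start site both 1-week libraries held a peak (−log10 q 7.86 and 12.81 in the authors' peak lists, summits 188 and 145 bp upstream of the start) and neither 12-week library held one within 500 bp. At Mmp3 both 12-week libraries held a peak (−log10 q 10.24 and 12.85, summits 222 and 119 bp upstream) and neither 1-week library did. The 250 bases before each RefSeq start (GRCm38.p6, the mm10 assembly) read as follows, 5′ to 3′ on the gene's strand. Sult1e1 is at chr5:87591612-87591861 on the minus strand and Mmp3 at chr9:7445572-7445821 on the plus strand. Capitals mark matches to 4 motifs searched on both strands: AP-1 (TGANTCA), a PU.1-type site (GAGGAAGT), an E-box (CAGCTG) and a TATA box (TATAAA).
Sult1e1: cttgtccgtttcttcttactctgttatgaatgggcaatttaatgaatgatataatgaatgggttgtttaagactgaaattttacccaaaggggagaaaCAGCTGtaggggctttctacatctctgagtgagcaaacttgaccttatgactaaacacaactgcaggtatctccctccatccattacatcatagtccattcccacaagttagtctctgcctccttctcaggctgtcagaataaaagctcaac
Mmp3: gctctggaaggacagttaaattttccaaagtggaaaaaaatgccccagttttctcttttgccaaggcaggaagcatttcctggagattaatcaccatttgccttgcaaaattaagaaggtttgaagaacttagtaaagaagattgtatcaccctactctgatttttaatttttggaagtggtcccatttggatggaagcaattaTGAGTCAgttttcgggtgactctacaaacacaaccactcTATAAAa
The Sult1e1 window held an E-box 152 to 147 bases before the start. The Mmp3 window held the AP-1 match TGAGTCA 46 to 40 bases before the start. The letters TATAAA matched 7 to 2 bases before it, and whether they act as a TATA box for this start was not tested.

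Macrophage genes rose together. Of 26 macrophage markers tested 19 rose and 0 fell (median log2 change 2.78 against -0.05 over all genes), and of 15 lipid-associated macrophage markers 9 rose and 0 fell (median 1.47). The general markers included Cd68, a lysosomal membrane protein of macrophages, at 668, 360.5, 653, 774 and 242 TPM after 12 weeks and 30.1, 34.7, 22.9 and 27.9 TPM after 1 week (4.07 ± 0.38, adjusted p = 4.15e-08). Every 12-week library lay above every 1-week library by several times. Adgre1, the F4/80 antigen, changed by 3.96 ± 0.49, adjusted p = 3.02e-06, and Ptprc, the pan-leukocyte antigen CD45, by 3.96 ± 0.41, adjusted p = 2.46e-07. Ctss, a cysteine protease of antigen-presenting cells, read 1207, 355, 788, 888 and 383 TPM and 6.68, 18.6, 20.4 and 34.6 TPM (5.14 ± 0.48, adjusted p = 3.28e-08). The lysozyme Lyz2 (by 3.57 ± 0.51) and Spi1, the myeloid transcription factor PU.1 (by 3.31 ± 0.45), also rose, with limma adjusted p = 2.35e-05 and 1.29e-05. Csf1r, the receptor for the macrophage growth factor, was at 1.37 ± 0.57 and did not pass (adjusted p = 0.183). The 4 markers often used for tissue-resident macrophages were chosen after their values were seen. Timd4 read 0 to 1.03 TPM after 12 weeks and 0 to 1.82 TPM after 1 week, and Lyve1 (0.27 ± 0.38), Cd163 (-0.82 ± 0.40) and Mrc1 (1.24 ± 0.40; adjusted p = 0.0618, or 0.0205 without 1-week replicate 2 and 0.0322 with median-ratio scaling) did not pass either.

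The lipid-associated genes included the first of the ranked increases. Mmp12, the macrophage elastase (ENSMUSG00000049723, chromosome 9, 7344381 to 7369499, mm10), read 997, 34.8, 256, 746 and 193 TPM after 12 weeks and 0.06, 0, 1.16 and 0.25 TPM after 1 week (7.68 ± 0.67, adjusted p = 1.89e-08). It was near 0 in each 1-week library and varied widely among 12-week libraries, with replicate 2 lowest. Trem2, a lipid-sensing receptor, read 223, 46.2, 154, 330.2 and 62.4 TPM and 0.18, 0.06, 0.63 and 2.79 TPM (6.26 ± 0.57, adjusted p = 2.7e-08). Spp1, the secreted protein osteopontin, read 738, 19.5, 85.1, 134 and 282 TPM and 1.86, 0.55, 0.73 and 0.69 TPM (6.18 ± 0.73, adjusted p = 1.72e-06). Replicate 2 was the lowest 12-week library for these 3 genes, while replicate 1 or replicate 4 was the highest. Atp6v0d2, a macrophage and osteoclast subunit of the vacuolar proton pump, read 57.5, 17.00, 61.6, 103 and 37.97 TPM after 12 weeks and 0, 0.05, 0 and 0 TPM after 1 week, where only replicate 2 was above 0 (limma adjusted p = 1.36e-10). Itgax, the CD11c integrin chain, was listed at 0 in every 1-week library and read 15.8, 2.60, 10.9, 17.00 and 2.70 TPM after 12 weeks (adjusted p = 5.68e-06). Lgals3, galectin-3, rose by 4.10 ± 0.42 and Lipa, the lysosomal acid lipase, by 1.23 ± 0.28 (adjusted p = 1.84e-07 and 0.0058). Gpnmb, a glycoprotein of lipid-laden macrophages, rose by 2.25 ± 0.59 (adjusted p = 0.0175), a call lost in 3 cases (adjusted p from 0.0504 to 0.0854 without 12-week replicate 1 or 1-week replicates 2 or 3). Of 26 lysosomal genes 7 rose and 0 fell (median 0.23), and the count was 3 without 12-week replicate 1 or 1-week replicates 2 or 3 and 4 without 12-week replicate 3 or 1-week replicate 4. Ctsb, cathepsin B, went from 1105, 1045, 1076 and 1104 TPM to 3619, 1749.6, 2310.2, 3635 and 2298 TPM (1.27 ± 0.22, adjusted p = 0.000286). Ftl1, the ferritin light chain, was the most abundant gene that rose; it was named after its values were seen (9654, 7414, 6780.3 and 8393 TPM to 21194, 14291, 16888, 15756 and 12945 TPM; 1.00 ± 0.22, adjusted p = 0.00317).

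Other leukocyte genes among the largest increases were Rgs1, a regulator of G-protein signalling in lymphoid and myeloid cells (6.77 ± 0.51, adjusted p = 1.11e-09), Cd52, a leukocyte surface peptide (4.80 ± 0.62, adjusted p = 6.25e-06), Itgb2, the CD18 integrin chain (4.77 ± 0.62, adjusted p = 5.68e-06), Lat2, a signalling adaptor of myeloid, mast and B cells (4.66 ± 0.56, adjusted p = 2.2e-06), and Glipr1 (4.49 ± 0.51, adjusted p = 1.05e-06). Rgs1 read 185, 133, 168, 296 and 128 TPM after 12 weeks and 0.70, 0, 1.14 and 0.80 TPM after 1 week. These genes were at 10 TPM or less in each 1-week library. Groups that do not overlap were a condition of the ranking.

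Mast cell genes appeared after 12 weeks. Of the 10 tested genes of a neutrophil, mast cell and eosinophil list 4 rose, all of them mast cell genes: Cpa3, Cma1, Mcpt4 and Ms4a2. Cma1, mast cell chymase, read 152, 78.8, 69.03, 3.34 and 71.7 TPM after 12 weeks and 0, 0, 0 and 1.32 TPM after 1 week (5.30 ± 0.65, adjusted p = 2.92e-06). Cpa3, mast cell carboxypeptidase, read 134, 46.7, 51.6, 5.50 and 83.4 TPM and 0, 0, 0 and 1.73 TPM (5.13 ± 0.61, adjusted p = 2.12e-06), and the tryptase Tpsb2 176, 63.4, 69.7, 11.2 and 117 TPM and 0, 0, 1.28 and 0 TPM (5.73 ± 0.52, adjusted p = 2.67e-08). In all 3 of them 12-week replicate 4 was the lowest of its group. A second tryptase, Tpsab1, was listed at 0 in every 1-week library and read 108, 39.1, 66.8, 0.08 and 121 TPM after 12 weeks (adjusted p = 7.53e-05). Tpsb2 and Tpsab1 are related genes, so some reads may have been shared between them. Ms4a2, the beta chain of the high-affinity IgE receptor, was listed at 0 in each 1-week library and in 12-week replicate 4, and was at 0.63 to 1.64 TPM in the other 12-week libraries (adjusted p = 0.0268; adjusted p from 0.0574 to 0.0844 without 12-week replicates 2, 3 or 5 or 1-week replicates 1, 2, 3 or 4). The neutrophil genes S100a8 (0.95 ± 0.82, adjusted p = 0.616) and S100a9 (0.65 ± 0.45, adjusted p = 0.498) did not pass.

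Antibody genes rose and differed widely between libraries. Of 172 tested immunoglobulin genes 35 rose and 0 fell, where 3.54% of all tested genes rose and 2.39% fell. Over all measured immunoglobulin genes the mean log2(TPM + 1) was 0.06 to 0.38 in the 1-week libraries. Genes this near the floor at 1 week could hardly fall, and some may have entered the test through the 12-week libraries alone. Of 9 B and plasma cell markers 6 rose and 0 fell (median 2.34). The count of 6 was 2 without 1-week replicates 1 or 2 and 3 without 12-week replicate 1 or 1-week replicates 3 or 4. Jchain, which joins secreted IgA and IgM, read 425, 1454, 803, 298 and 416 TPM after 12 weeks and 0, 27.3, 61.8 and 8.21 TPM after 1 week (5.66 ± 1.25, adjusted p = 0.00413). Igha, the IgA heavy chain, was named after its values were seen. It read 509, 1499, 869, 690.3 and 741 TPM and 0, 0, 191 and 39.2 TPM (6.43 ± 1.13, adjusted p = 0.000343). Replicate 2 was the highest 12-week library for both genes, and 1-week replicate 3 the highest of its group. Igkc, the kappa light chain, rose by 5.94 ± 1.48 (adjusted p = 0.0118; adjusted p = 0.0829 without 1-week replicate 1). Cd79a, part of the B cell receptor, was at 1.67 ± 0.60 and did not pass (adjusted p = 0.104). Immunoglobulin segments share sequence, so reads may have been split between them.

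Of 17 T and NK cell markers 9 rose and 0 fell (median 1.48). Nkg7, a granule protein of cytotoxic lymphocytes, read 17.1, 90.6, 31.8, 2.37 and 9.57 TPM after 12 weeks and 0, 0.17, 0.82 and 0 TPM after 1 week (3.91 ± 0.62, adjusted p = 9.18e-05). The T cell receptor constant genes Trac and Trbc2 rose by 3.40 ± 0.63 and 3.06 ± 0.62 (adjusted p = 0.000584 and 0.00163), and Trac read 5.71, 43.9, 25.7, 7.96 and 5.44 TPM and 0, 0, 1.72 and 0 TPM. Replicate 2 was the highest 12-week library for these 3 genes. Cd3d, a chain of the T cell receptor complex, was listed at 0 in each 1-week library and read 1.65, 6.50, 1.90, 0.73 and 2.74 TPM after 12 weeks (adjusted p = 7.87e-05). Of 8 dendritic cell markers 1 rose, the homing receptor Ccr7 (1.82 ± 0.32, adjusted p = 0.000343), and the count was 3 without 12-week replicates 4 or 5.

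Of 9 MHC class II genes, which present peptides to helper T cells, 6 rose and 0 fell (median 2.57), a count that was 3 without 12-week replicates 2 or 3. Cd74, the invariant chain, read 1861, 7444, 6815, 1969 and 1286 TPM after 12 weeks and 339, 421, 411 and 510.3 TPM after 1 week (2.84 ± 0.69, adjusted p = 0.00983). Replicates 2 and 3 were the highest at 12 weeks, and the 1-week libraries lay close together. H2-Ab1, a class II beta chain, rose by 2.81 ± 0.73 (adjusted p = 0.0177; adjusted p from 0.0596 to 0.0607 without 12-week replicates 2 or 3). Over the same libraries erythroid markers summed to 3690.3, 41700, 19448, 3615 and 4165 TPM at 12 weeks and 4375, 917, 7336 and 2104 TPM at 1 week, highest in 12-week replicates 2 and 3, and none of 7 passed. Class II, immunoglobulin and T cell genes were thus highest in libraries where red cell genes were highest too, and the part of blood cells in their rise was not tested.

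**Figure D2:**
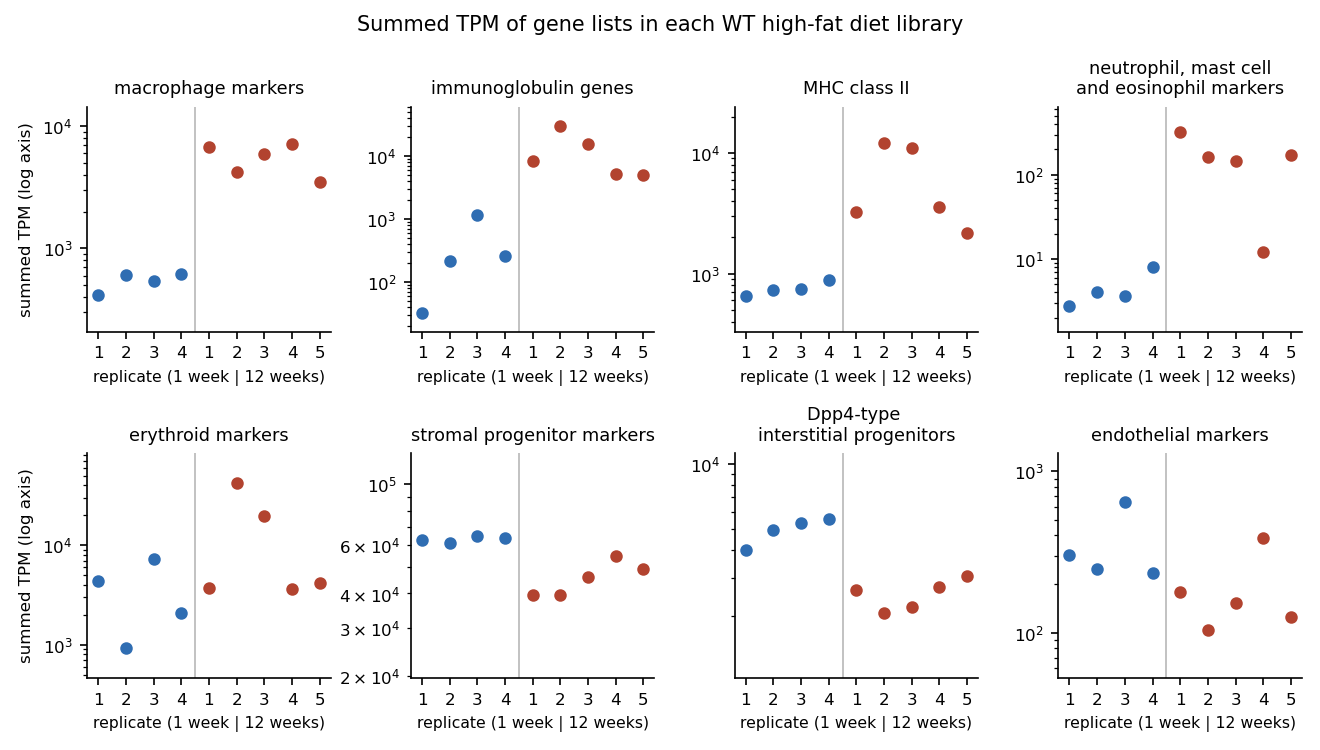
Summed TPM (log axis) of 8 gene lists in each library, 1-week replicates 1 to 4 in blue and 12-week replicates 1 to 5 in red. Macrophage, immunoglobulin, MHC class II and mast cell sums lie higher in all 12-week libraries, stromal and Dpp4-type sums lower, and erythroid and endothelial sums overlap between the groups.

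Chemokine genes rose in part. Of 23 tested 8 rose and 0 fell (median 1.02), and 5 rose without 12-week replicate 1. Ccl6, a macrophage chemokine, read 614, 554, 534, 477 and 379 TPM after 12 weeks and 21.1, 26.1, 44.7 and 44.1 TPM after 1 week (3.93 ± 0.60, adjusted p = 5.65e-05). Ccl9 rose by 4.12 ± 0.54, Ccl3 by 2.95 ± 0.64 and the neutrophil attractant Cxcl2 by 2.55 ± 0.56 (adjusted p = 7.16e-06, 0.00338 and 0.00357). Cx3cl1, a membrane-bound chemokine for monocytes, went from 0, 1.61, 4.22 and 0.51 TPM to 25.3, 5.35, 5.77, 23.6 and 16.9 TPM (2.69 ± 0.56, adjusted p = 0.00216). Abundant members such as Ccl2 and Cxcl1 overlapped between the groups. Ccl2, the main monocyte attractant, read 1091, 1334, 794, 357 and 894 TPM and 413, 694, 555 and 1213 TPM (0.30 ± 0.61, adjusted p = 0.878), and Cxcl1 changed by -0.39 ± 0.48, adjusted p = 0.756. The part of the macrophages measured above in the chemokine rise was not tested.

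Of 23 cytokine and acute-phase genes 4 rose and 0 fell: Il1rn, Il1rl1, Il7 and Spp1 (median 0.08). Il1rn, the interleukin-1 receptor antagonist, was listed at 0 in every 1-week library and read 41.00, 7.51, 14.8, 20.9 and 8.11 TPM after 12 weeks (adjusted p = 1.77e-07). Il1rl1, the receptor for interleukin-33, read 15.3, 7.68, 4.44, 2.44 and 18.8 TPM and 0, 1.32, 1.32 and 0 TPM (2.53 ± 0.45, adjusted p = 0.000392). Il7, a lymphocyte survival factor, was low in both groups and rose by 1.63 ± 0.45 (adjusted p = 0.0285; adjusted p from 0.05 to 0.0861 without 12-week replicates 1, 3 or 5 or 1-week replicates 1, 2 or 4). Il33, a stromal alarmin (0.49 ± 0.40), and Il6 (-0.02 ± 0.64) did not pass (adjusted p = 0.588 and 1). Saa3, an acute-phase protein, read 365, 37.7, 53.3, 40.8 and 53.3 TPM and 4.41, 0.31, 73.96 and 7.53 TPM. Its 12-week replicate 1 stood far above the rest and the groups overlapped (3.10 ± 1.31, adjusted p = 0.188). Of 13 complement genes 1 rose and 2 fell. C4b went from 18.9, 29.2, 18.1 and 26.4 TPM to 232, 167, 130.1, 203 and 387 TPM (3.15 ± 0.48, adjusted p = 6.3e-05), with no overlap, though its near-identical neighbour C4a may share its reads. C3 did not pass (0.41 ± 0.41, adjusted p = 0.683). C7, a component of the membrane attack complex, fell by 1.91 on the log2 scale (adjusted p = 0.0471; adjusted p from 0.0812 to 0.18 without 12-week replicates 1, 2, 3 or 5 or 1-week replicates 1, 2 or 4), and Cd55 is given below with the progenitor genes. Of 30 interferon-response genes 1 rose and 0 fell (median -0.21, negative for 19), where 3.54% of all tested genes rose. They summed to 5519, 1782, 1407.5, 1800 and 1695 TPM after 12 weeks and 2934, 2414, 2190 and 3160 TPM after 1 week. All 12-week libraries but replicate 1 thus lay below every 1-week library. The gene that rose, Mx1, was listed at 0 in every 1-week library and read 6.89, 1.36, 0.39, 1.19 and 2.12 TPM after 12 weeks (limma adjusted p = 0.00936). Of 14 MHC class I genes 1 rose, Nlrc5 (1.29 ± 0.34, adjusted p = 0.0185; adjusted p from 0.0521 to 0.0867 without 12-week replicates 1 or 5 or 1-week replicates 1 or 3).

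Structural matrix genes fell in part, while Mmp3 and the protease inhibitor Timp1 rose. Timp1, the inhibitor of matrix metalloproteinases, went from 98.6, 75.2, 99.02 and 64.7 TPM to 837, 553, 463, 451 and 1169.7 TPM (2.95 ± 0.51, adjusted p = 0.000305), with no overlap. Of 31 matrix proteases and inhibitors 3 rose (Mmp3, Mmp12 and Timp1) and 6 fell, and 3 fell without 1-week replicate 3. Adamts16, a secreted metalloprotease, fell from 9.76, 15.3, 19.6 and 10.7 TPM to 0.88, 1.65, 1.91, 0.66 and 1.17 TPM (-2.70 ± 0.49, adjusted p = 0.000472). Of 44 further matrix genes 15 fell and 2 rose (median -0.67), and 9 fell without 1-week replicate 2. Sparc, a collagen-binding matricellular protein, was the most abundant gene that fell, at 13191, 12926, 12849 and 8719 TPM after 1 week and 5415, 2569.8, 3209, 5552 and 6265 TPM after 12 weeks (-1.43 ± 0.30, adjusted p = 0.00203). The small proteoglycan Ogn fell from 1374, 983, 918 and 975 TPM to 235, 637, 553, 484 and 516 TPM (-1.19 ± 0.24, adjusted p = 0.00193), and Mfap4, a microfibril protein, changed by -1.85 ± 0.37, adjusted p = 0.00158. Vit, vitrin, fell from 165, 99.6, 85.3 and 104 TPM to 10.6, 13.4, 23.3, 38.1 and 14.1 TPM (-2.55 ± 0.37, adjusted p = 3.33e-05). The elastic-fibre genes Eln, elastin (-1.70 ± 0.42, adjusted p = 0.012; adjusted p from 0.0517 to 0.0703 without 12-week replicate 1 or 1-week replicate 2), and Fbln5, which joins elastin to cells (-1.52 ± 0.33, adjusted p = 0.00306), also fell and were named after their values were seen. The 2 that rose were Tnc, tenascin-C of remodelled tissue (2.64 ± 0.62, adjusted p = 0.00677), and Fbln7, a fibulin (32.6, 36.7, 51.1 and 53.3 TPM to 117, 170.4, 185, 216 and 203 TPM; 2.01 ± 0.49, adjusted p = 0.0108). Fn1, fibronectin (-0.62 ± 0.37, adjusted p = 0.404), and Postn, periostin (0.24 ± 0.41, adjusted p = 0.848), did not pass.

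Of 30 collagen chains 5 fell and 0 rose (median -0.40), and 3 fell without 12-week replicate 3 or 1-week replicate 2. Among them were 3 chains of 1 basement membrane network: Col4a3, Col4a4 and Col4a5 assemble into a common type IV collagen trimer. Col4a3 read 39.5, 39.6, 26.6 and 14.9 TPM after 1 week and 0.73, 2.73, 3.57, 3.28 and 0.86 TPM after 12 weeks (-3.29 ± 0.47, adjusted p = 2.23e-05). Col4a4, its head-to-head neighbour on chromosome 1, read 34.3, 21.04, 25.4 and 16.9 TPM and 0.83, 1.81, 2.41, 3.36 and 0.84 TPM (-3.19 ± 0.36, adjusted p = 7.73e-07), and Col4a5 52.7, 47.6, 41.3 and 29.6 TPM and 6.83, 5.46, 8.58, 9.78 and 7.55 TPM (-2.33 ± 0.29, adjusted p = 4.49e-06). In none of the 3 genes did the groups overlap, which the ranking required of Col4a3 and Col4a4. The chains of the widespread type IV trimer, chosen after their values were seen, did not pass: Col4a1 changed by 0.08 ± 0.40, adjusted p = 0.966, and Col4a2 by -0.10 ± 0.39, adjusted p = 0.953. Col4a1 read 177, 60.1, 68.6, 113 and 228 TPM after 12 weeks and 64.97, 121, 155 and 111 TPM after 1 week, with the groups overlapping. Of other basement membrane genes, also named after their values were seen, nidogen Nid1 fell (-1.33 ± 0.31, adjusted p = 0.00654). The laminin chains Lamc1 (-1.15 ± 0.29, adjusted p = 0.0117) and Lama2 (-1.08 ± 0.29, adjusted p = 0.0206, or from 0.0652 to 0.0729 without 12-week replicate 1 or 1-week replicates 1 or 3) also fell. With the libraries whose genotype field reads Tcf21 KO, Nid1 (limma adjusted p = 0.078), Lamc1 (0.11) and Lama2 (0.205) did not pass. The fibrillar collagens were less clear: Col1a1 (-1.21 ± 0.50, adjusted p = 0.176) and Col3a1 (-0.89 ± 0.34, adjusted p = 0.138) did not pass, and Col1a2 fell by 0.89 on the log2 scale (adjusted p = 0.034; adjusted p from 0.0658 to 0.121 without 12-week replicates 2 or 3 or 1-week replicates 1, 2 or 3). The other collagen that fell was Col6a6 (adjusted p = 0.0203; adjusted p from 0.0542 to 0.0672 without 12-week replicates 1, 3 or 5 or 1-week replicate 2). Of 16 collagen processing and crosslinking genes 1 fell, the prolyl hydroxylase P4ha2 (-1.06 ± 0.26, adjusted p = 0.0115).

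Genes of the Dpp4-type progenitors fell in part. Of 16 listed genes of these interstitial progenitors 8 fell and 0 rose (median -1.35), and 5 fell without 12-week replicate 1 or 1-week replicate 3. The semaphorin Sema3c read 90.7, 154, 132 and 119.6 TPM after 1 week and 30.2, 59.96, 57.5, 23.3 and 61.1 TPM after 12 weeks (-1.48 ± 0.30, adjusted p = 0.00187). Cd55, an inhibitor of complement on the cell surface, read 516, 726, 724 and 729 TPM and 272, 278, 323, 223 and 389.5 TPM (-1.19 ± 0.27, adjusted p = 0.00605). Stmn4, a stathmin that binds tubulin, fell from 94.2, 124, 107 and 96.7 TPM to 6.18, 18.7, 9.44, 22.8 and 33.2 TPM (-2.69 ± 0.59, adjusted p = 0.00384), and the transcription factor Creb5 changed by -1.50 ± 0.32, adjusted p = 0.00256. In all 4 genes the groups did not overlap, which the ranking required of Stmn4. The eponymous Dpp4, a cell-surface peptidase, read 55.9, 71.8, 87.9 and 95.7 TPM and 26.6, 32.2, 51.3, 22.8 and 48.01 TPM, and Pi16, a secreted peptidase inhibitor, 1203, 1543, 1471 and 1961 TPM and 465, 379, 505, 635 and 805 TPM. Both had groups that did not overlap, but neither passed over all genes (-1.12 ± 0.44, adjusted p = 0.148, for Dpp4 and -1.50 ± 0.60, adjusted p = 0.157, for Pi16). Dpp4 passed in the fit of the 9 compared libraries (adjusted p = 0.0406) and with array weights (0.0396), and Pi16 in both (0.00665 and 0.0192) and with the replicate number as a block (0.0235). Of 13 general stromal markers 1 fell and 0 rose. Cd34, a sialomucin of progenitors, fell from 1526, 1718, 1595 and 1444 TPM to 633, 458, 601, 667 and 749 TPM (-1.35 ± 0.18, adjusted p = 7.55e-06). Pdgfra, the receptor that defines these fibroblasts, read 122, 132, 134, 184 and 139.8 TPM after 12 weeks and 85.5, 104, 105 and 88.9 TPM after 1 week, higher in every 12-week library but not past the threshold (0.56 ± 0.21, adjusted p = 0.137, or 0.0403 in the fit of the 9 compared libraries). The stromal sum was lower in all 12-week libraries, and macrophage and immunoglobulin sums higher, than in the 1-week libraries, and the part of those cells in the falls was not tested.

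**Figure D3:**
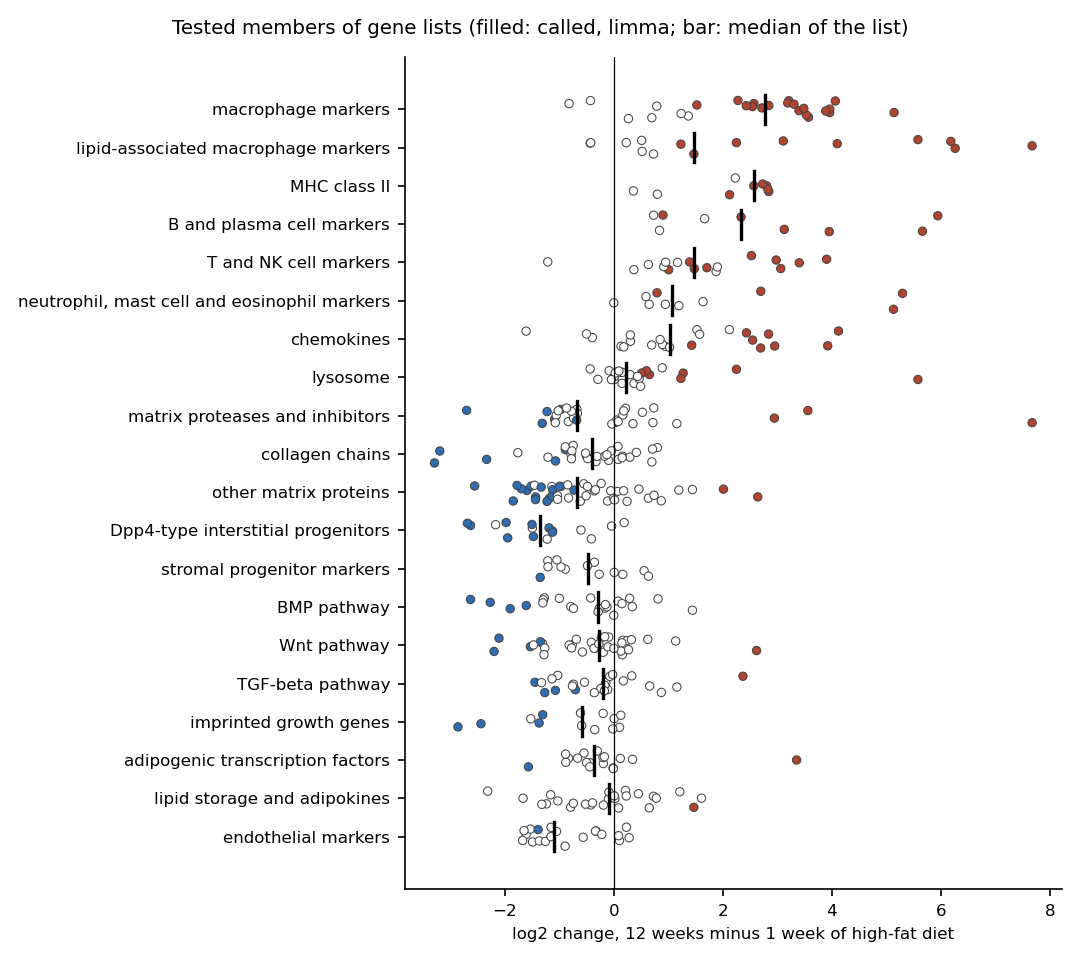
Log2 changes (12 weeks minus 1 week) of the tested members of 20 gene lists, filled red where a gene rose, blue where it fell and open where it did not pass, with the median of each list as a bar. Macrophage, MHC class II and B cell lists lie to the right of 0 with most of their members filled, and Dpp4-type, matrix and collagen lists reach to the left.

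Further genes with the largest decreases included some of secreted signals and the cell surface and others that act inside the cell. Penk, the enkephalin precursor, read 3584, 2187, 1592 and 1627 TPM after 1 week and 239, 230.1, 259, 694 and 381 TPM after 12 weeks (-2.69 ± 0.42, adjusted p = 8e-05). Nt5e, the CD73 enzyme that makes adenosine, read 23.7, 10.6, 5.72 and 6.28 TPM and 0.03, 0, 0, 0.59 and 0.10 TPM (-3.27 ± 0.45, adjusted p = 1.32e-05), at or near 0 in 4 of the 5 12-week libraries. Ackr4, a scavenger receptor for chemokines, read 21.98, 9.77, 12.2 and 8.52 TPM and 0.66, 0, 0.67, 2.14 and 0.91 TPM (-2.92 ± 0.52, adjusted p = 0.00038). Pgf, placental growth factor of the VEGF family, changed by -3.0 ± 0.65, adjusted p = 0.0031, and Cnmd, the angiogenesis inhibitor chondromodulin, by -3.32 ± 0.65, adjusted p = 0.00111. Nkain4 (-2.69 ± 0.35, adjusted p = 7.61e-06), the tubulin Tubb4a (-2.88 ± 0.49, adjusted p = 0.000229), the small GTPase Arl4d (-2.83 ± 0.53, adjusted p = 0.000677), Smtnl2 (-3.27 ± 0.51, adjusted p = 8.06e-05) and Ppp2r2b, a regulatory subunit of phosphatase 2A (-3.09 ± 0.44, adjusted p = 2.19e-05), complete the 15 ranked decreases together with Sult1e1, Col4a3, Col4a4, Adamts16 and Stmn4. Outside the ranked genes Fmo2, a flavin monooxygenase of the committed preadipocyte list, fell from 426, 297, 201 and 295 TPM to 19.9, 56.8, 48.4, 132 and 70.2 TPM (-2.39 ± 0.42, adjusted p = 0.000334).

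Some members of growth factor pathways fell, where 2.39% of all tested genes fell and 3.54% rose. Of 23 BMP pathway genes 4 fell and 0 rose (median -0.29), and the count was 1 without 1-week replicates 1 or 2 and 2 without 12-week replicates 1, 2 or 3 or 1-week replicate 4. Bmp7, a ligand tied to brown fat formation, fell from 5.88, 7.13, 10.02 and 9.48 TPM to 0.90, 0, 2.36, 0 and 0 TPM (-2.63 ± 0.49, adjusted p = 0.000698). Chrdl1, a secreted BMP inhibitor, fell by 1.90 on the log2 scale (adjusted p = 0.0202; adjusted p from 0.0695 to 0.127 without 12-week replicate 1 or 1-week replicates 1 or 2), and the ligand Gdf10 fell by 2.27 on the log2 scale (adjusted p = 0.0377; adjusted p from 0.0538 to 0.122 without 12-week replicates 1, 2 or 3 or 1-week replicates 1, 2, 3 or 4). Bmp4 did not pass (-1.28 ± 0.52, adjusted p = 0.171). Of 33 Wnt pathway genes 4 fell and 1 rose (median -0.28), and the falls were 2 without 12-week replicates 1, 2 or 3 or 1-week replicate 4. Wnt5a, a noncanonical ligand, fell from 21.3, 40.5, 18.7 and 23.9 TPM to 3.82, 3.61, 6.36, 10.2 and 3.35 TPM (-2.11 ± 0.37, adjusted p = 0.000315). Rspo3, a secreted amplifier of Wnt signals, fell from 14.6, 18.3, 4.22 and 5.91 TPM to 2.02, 0.53, 1.96, 1.35 and 0.70 TPM (-2.20 ± 0.46, adjusted p = 0.00248). The ligands Wnt2b (adjusted p = 0.0281; adjusted p from 0.0536 to 0.0965 without 12-week replicates 1, 2, 3 or 5 or 1-week replicates 1 or 4) and Wnt9a (adjusted p = 0.0382; adjusted p from 0.0652 to 0.138 without 12-week replicates 1, 2 or 3 or 1-week replicates 2, 3 or 4) were the other 2. The secreted inhibitor Frzb rose (2.62 ± 0.66, adjusted p = 0.0133; adjusted p from 0.0545 to 0.0585 without 12-week replicate 1 or 1-week replicate 1). Of 24 TGF-beta pathway genes 4 fell and 1 rose (median -0.21), and the falls were 1 without 12-week replicate 3 or 1-week replicates 2 or 4 and 2 without 12-week replicates 1 or 2. Its latent binding proteins moved apart: Ltbp4 fell from 253, 332, 384 and 342 TPM to 57.04, 165, 156, 179.8 and 87.3 TPM (-1.45 ± 0.31, adjusted p = 0.00309) and Ltbp2 rose from 0.17, 1.86, 1.08 and 0.81 TPM to 7.45, 7.17, 10.2, 7.49 and 12.3 TPM (2.37 ± 0.47, adjusted p = 0.00122). The other 3 that fell were the ligand Tgfb3 (adjusted p = 0.0422; adjusted p from 0.0971 to 0.145 without 12-week replicates 2 or 3 or 1-week replicates 2, 3 or 4), the binding protein Ltbp1 (adjusted p = 0.0331; adjusted p from 0.0552 to 0.131 without 12-week replicates 1, 3 or 5 or 1-week replicates 1, 2 or 4) and the inhibitor Fstl3 (adjusted p = 0.0239; adjusted p from 0.051 to 0.0871 without 12-week replicates 1, 2 or 3 or 1-week replicates 2 or 4). The ligand Tgfb1 did not pass (0.33 ± 0.37, adjusted p = 0.723). Of 28 PDGF, FGF and angiogenic factors 1 rose and 1 fell, near the shares over all genes. Hgf, hepatocyte growth factor, went from 3.98, 7.49, 6.95 and 3.74 TPM to 36.5, 20.6, 24.5, 22.9 and 22.96 TPM (2.04 ± 0.40, adjusted p = 0.00131), and Angptl1 from 39.8, 59.6, 39.5 and 57.5 TPM to 2.96, 10.6, 12.5, 8.40 and 10.6 TPM (-2.41 ± 0.43, adjusted p = 0.000382).

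Imprinted growth genes, which are expressed from 1 parental copy and are high in young tissue, fell in 4 of 13 members tested and rose in none (median -0.59). Igf2, the fetal insulin-like growth factor, read 6.33, 7.65, 11.1 and 6.04 TPM after 1 week and 0, 0, 0, 1.10 and 0.10 TPM after 12 weeks (-2.86 ± 0.50, adjusted p = 0.000302). Mest read 36.2, 91.9, 64.6 and 52.1 TPM and 16.01, 3.59, 7.24, 12.8 and 16.03 TPM (-2.44 ± 0.43, adjusted p = 0.000322), and Ndn, necdin, 108, 84.3, 91.5 and 101 TPM and 38.01, 33.6, 39.2, 49.3 and 32.7 TPM (-1.31 ± 0.21, adjusted p = 8.92e-05). Dlk1, a surface inhibitor of adipogenesis, was low in both groups at 4.03, 4.32, 1.98 and 3.41 TPM and 0.90, 0, 0.78, 0.88 and 1.07 TPM (adjusted p = 0.0326; adjusted p from 0.0529 to 0.101 without 12-week replicates 2 or 3 or 1-week replicates 1, 2 or 4). Igf1, the adult growth factor, did not pass (-0.34 ± 0.32, adjusted p = 0.647). Of 15 retinoid pathway genes 3 rose and 1 fell. The retinaldehyde reductase Dhrs3 rose by 1.26 ± 0.31 (adjusted p = 0.012; adjusted p = 0.0615 without 1-week replicate 3). Aldh1a2, which makes retinoic acid, rose by 3.00 ± 0.81 (adjusted p = 0.0233; adjusted p from 0.05 to 0.122 without 12-week replicates 1 or 5 or 1-week replicate 1). Rbp4, the secreted retinol carrier, fell by 2.18 on the log2 scale (adjusted p = 0.0137; adjusted p from 0.0542 to 0.0854 without 12-week replicate 2 or 1-week replicates 1 or 2).

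Few adipocyte genes passed, as was so for all tested genes, of which 3.54% rose and 2.39% fell. Of 18 adipogenic transcription factors 1 rose and 1 fell, near those shares. Pparg, the master regulator, overlapped between the groups at 47.8, 21.9, 33.2, 55.4 and 46.6 TPM after 12 weeks and 64.98, 38.4, 46.4 and 20.6 TPM after 1 week (-0.01 ± 0.47, adjusted p = 1). Cebpb, an early factor that is also induced in inflammation, rose by 3.35 ± 0.92 (adjusted p = 0.0256; adjusted p from 0.0528 to 0.0961 without 12-week replicates 2, 3 or 5 or 1-week replicates 1, 3 or 4), and Klf5 fell by 1.57 on the log2 scale (adjusted p = 0.0261; adjusted p from 0.0572 to 0.139 without 12-week replicates 3 or 5 or 1-week replicates 1 or 2). Of 26 lipid storage and adipokine genes 1 rose, Plin2, the coat protein of small lipid droplets in many cell types, from 272, 282, 272 and 304 TPM to 1179, 500.2, 692, 945 and 769 TPM (1.47 ± 0.28, adjusted p = 0.000692), with no overlap. It is also on the lipid-associated macrophage list. Adipoq (-1.24 ± 0.94, adjusted p = 0.548) and Fabp4 (-0.42 ± 0.50, adjusted p = 0.744) did not pass. Of 11 Cdk inhibitors and senescence genes 2 rose: Cdkn2c, the inhibitor p18 (32.3, 24.9, 30.4 and 21.1 TPM to 56.9, 56.4, 73.9, 73.9 and 86.6 TPM; 1.32 ± 0.30, adjusted p = 0.00606), and the plasminogen activator inhibitor Serpinb2 (0, 0, 3.29 and 0.28 TPM to 20.4, 16.2, 11.1, 11.6 and 43.3 TPM; 3.63 ± 0.48, adjusted p = 7.47e-06). Mki67, a proliferation marker, did not pass (-0.61 ± 0.49, adjusted p = 0.578), nor did any of 32 replication and mitosis genes. No member passed among 26 immediate early genes, 23 hypoxia and glycolysis genes, 20 cholesterol synthesis genes, 19 genes of endoplasmic reticulum stress and 12 contractile genes. With 5.93% of all tested genes passing, lists of these sizes would hold few calls in any case. A single gene outside the lists, the heparin-binding growth factor midkine (Mdk), was chosen after its values were seen. It rose from 44.7, 59.3, 32.4 and 33.9 TPM to 278, 515, 559.8, 294 and 252 TPM (3.09 ± 0.35, adjusted p = 1.12e-06).

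**Figure D4:**
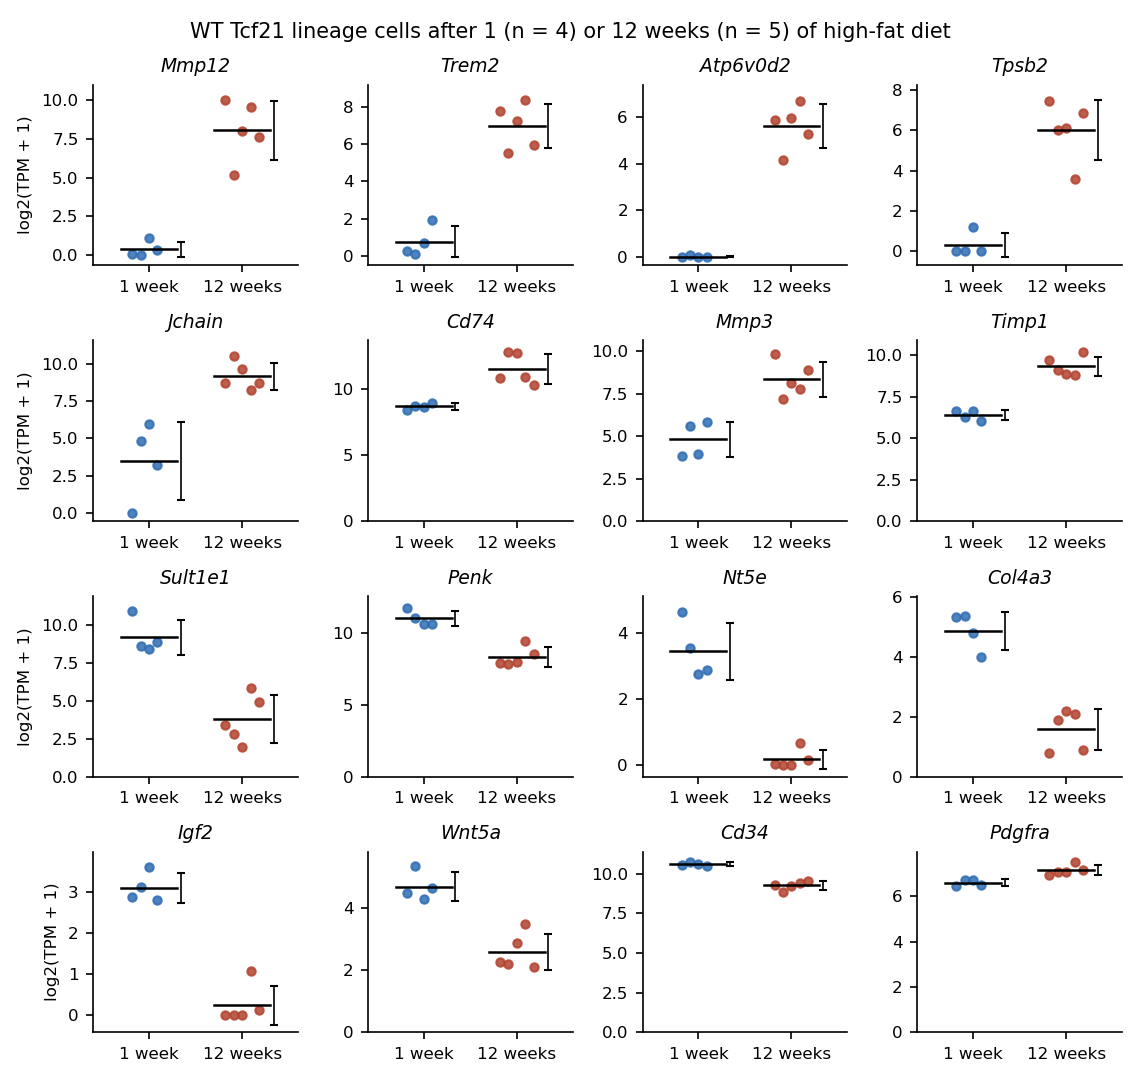
Log2(TPM + 1) of 16 genes in each library, 1 week in blue and 12 weeks in red, each panel on its own axis, with the group mean as a line and 1 SD as an error bar. The groups are apart in all 16 panels, including Pdgfra, which did not pass the threshold. For the ranked genes among them this was a condition of the ranking.

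Markers of endothelial cells had a median change of -1.10, negative for 16 of 20, though most did not pass. Of the 20 endothelial markers 1 fell, the angiopoietin receptor Tek (-1.39 ± 0.41, adjusted p = 0.0428; adjusted p from 0.0581 to 0.143 without 12-week replicates 1, 2 or 5 or 1-week replicates 1, 2, 3 or 4), and 4 fell without 12-week replicate 4. The defining endothelial markers Pecam1 and Cdh5 read at most 22.99 and 8.89 TPM after 12 weeks and 61.8 and 19.90 TPM after 1 week, with the groups overlapping. None of 14 mesothelial, 11 pericyte or 5 skeletal muscle markers passed, and the epithelial markers Epcam and Cdh1 read at most 1.09 TPM. Of 5 gonadal tract epithelium markers tested Cldn3 fell (-2.24 ± 0.45, adjusted p = 0.00137), from 2.5 to 7.36 TPM after 1 week to 0 to 0.91 TPM after 12 weeks. In the Schwann and neural list Mbp rose (1.45 ± 0.41, adjusted p = 0.0301; adjusted p from 0.0501 to 0.133 without 12-week replicates 1, 3 or 4 or 1-week replicates 1 or 4) and Ncam1 fell (-1.21 ± 0.36, adjusted p = 0.0429; adjusted p from 0.0548 to 0.115 without 12-week replicates 2, 3, 4 or 5 or 1-week replicates 1, 2 or 3).

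Other WT groups of the series give reference levels. At 3 weeks of age (7 libraries) and at 6 months on a regular diet (2 libraries) age and diet both differ from the groups compared, and the values are given without a test. Sult1e1 lay at 11.4 to 167 TPM (median 27.7) at 3 weeks and 14.8 and 104 TPM at 6 months, below every 1-week library and in part above the 12-week range. Penk lay at 609 to 3379 TPM (median 1664) and 469 and 1039.9 TPM, and Nt5e at 1.87 to 10.04 TPM (median 5.71) and 0.37 and 0.02 TPM. Mmp12 lay at 0 to 0.31 TPM (median 0.04) at 3 weeks and 6.59 and 75.7 TPM at 6 months, the higher of them within the 12-week range. Trem2 lay at 0 to 1.51 TPM (median 0.52) and 3.62 and 26.8 TPM, below every 12-week library. Cd74 read 4028 and 1840.3 TPM at 6 months, both within the 12-week range, and 3.68 to 112 TPM (median 36.7) at 3 weeks. Timp1 read 13.8 to 96.2 TPM (median 76.3) and 148 and 228 TPM, below every 12-week library at both ages. Col4a3 read 15.2 to 71.7 TPM (median 42.7) and 1.70 and 8.03 TPM, so the 6-month libraries were below every 1-week library.

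Libraries titled KO were made at the same 2 diet times (2 libraries each), and their 12-week against 1-week change shares no library with the WT change. In these KO libraries 77 genes were higher after 12 weeks (0.492% of those tested) and 42 lower (0.268%). Of the 554 genes that rose in WT 521 (94.0%) had a positive KO change, where 42.6% of all tested genes did, and of the 374 that fell 357 (95.5%) had a negative one, where 54.8% did. The KO log2 changes were 8.48 for Mmp12, 4.58 for Trem2, 4.88 for Cma1, 1.57 for Timp1, -3.97 for Sult1e1, -2.76 for Col4a4 and -2.23 for Penk. For the antibody gene Igkc it was 0.60 against 5.94 in WT, and for Igf2 it was 0.82 against -2.86 in WT. The median KO change was 0.37 for the MHC class II genes (2.57 in WT) and 0.06 for the B and plasma cell markers (2.34 in WT). For macrophage markers it was 1.72 (2.78 in WT) and for lipid-associated macrophage markers 1.65 (1.47 in WT). Differences between these medians were not tested. The test of the difference between the KO and WT changes called 2 genes of 15659 (0.0128%), the immunoglobulin segment Ighv2-6-8 (-4.77) and Lrrn4 (-2.66), and 432 had an unadjusted p below 0.05. The count was 0 without 1-week replicates 1, 3 or 4 and 1 without 12-week replicates 2 or 4. Neither Igkc (adjusted p = 1) nor Igf2 (adjusted p = 0.584) was among the 2.

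Open chromatin at start sites was set beside these changes for the 11311 tested genes that matched a RefSeq start site by symbol. The ATAC-seq peak lists held 93314 and 82580 peaks at 12 weeks and 85959 and 76321 at 1 week, called by the authors for each library. Of 281 genes that fell 256 (91.1%) had a peak within 500 bp of a start in all 4 libraries, near the 87.7% of all tested genes. Of 386 genes that rose 201 (52.1%) did, and 93 (24.1%) had a peak in no library, against 7.82% of all genes. A peak in both 12-week libraries and neither 1-week library was found for 37 of the genes that rose (9.59%), 0 of those that fell and 64 of all genes (0.566%). Keeping peaks with −log10 q of at least 5 left 23 of the genes that rose (5.96%, against 0.477% of all genes). Besides Mmp3 the 37 genes included leukocyte genes such as Ccl3 and the complement receptors C3ar1 and C5ar1. They also included the leukocyte exchange factors Vav1 and Dock2, and Plek, a platelet and leukocyte signalling protein. These leukocyte genes were chosen after their peaks were seen. The reverse pattern was found for 3 of the genes that fell (1.07%), Sult1e1, Tdo2 and Slc41a3, and 48 of all genes (0.424%), and for 8 (2.85%, against 0.469% of all genes) when the peak had to cover the start. Tdo2, an enzyme of tryptophan breakdown named after its values were seen, fell from 27.7, 4.34, 2.41 and 2.41 TPM to 0.16, 0.03, 0.10, 0.05 and 0.39 TPM (-2.51 ± 0.42, adjusted p = 0.00021). Mmp12, Spp1, Ctss, Cma1, Cpa3 and Jchain had a start-site peak in none of the 4 libraries, and Trem2, Ptprc and Itgax in 1 of the 12-week libraries. Timp1, Cd68, Plin2, Sema3c, Cd55 and Cd34 had one in all 4. The part of the leukocytes measured above in these shares was not tested.

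**Figure D5:**
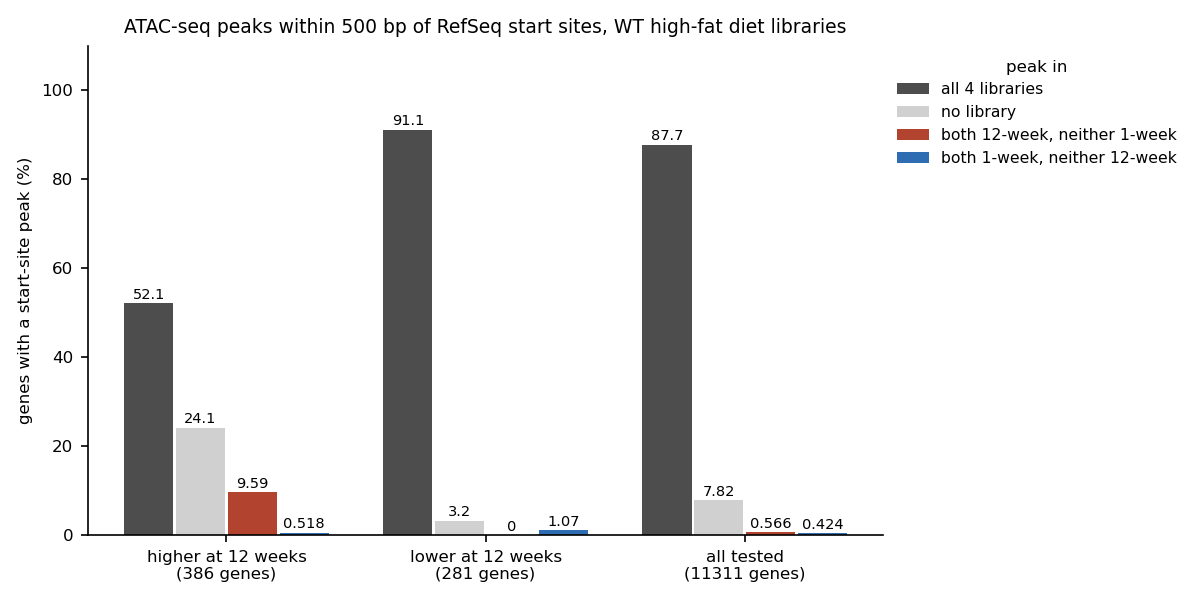
Share of genes with an ATAC-seq peak within 500 bp of a start site, for 386 genes that rose, 281 that fell and all 11311 tested genes, by the libraries that hold the peak. Genes that rose have fewer peaks in all 4 libraries (52.1%) and more in both 12-week libraries only (9.59%) than all genes (87.7% and 0.566%).

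In the RefSeq windows from 250 bases before to 50 after a start, the AP-1 letters TGANTCA were found on either strand in 11.9% of 497 windows of genes that rose, 7.61% of 394 windows of genes that fell and 5.55% of all 14462. The PU.1-type letters GAGGAAGT were found in 9.46%, 2.03% and 3.07%. In the 42 windows of genes that rose with a peak in both 12-week libraries only, each of these 2 motifs was found in 9 (21.4%). The E-box CAGCTG was found in 19.9%, 21.6% and 15.9% of the windows of genes that rose, genes that fell and all genes, and TATAAA in 12.3%, 10.4% and 7.81%. The motifs do not overlap one another, some genes have several windows, and a match is a description of these letters only.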

How the data were processed

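RNA-seq was analysed in 29 libraries of 8 groups and ATAC-seq in 4 WT libraries on high-fat diet. The deposited TPM values are per gene, and the submitters' processing notes name Trim Galore 0.6, FastQC, STAR 2.5.3a, RSEM, Bowtie2 2.3, MACS2 and the mm10 build, without a role for each. Peak scores are −log10 q values in the authors' deposited lists, 1 list per library. Strand use and counting options are not given in the sources used here, and read depth is unknown. Groups follow the titles.

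A gene was tested if 2 or more of the libraries reached 1 TPM for it. Log2(TPM + 1) was fitted with limma 3.58.1 (R 4.3.3), with 8 group means over all 29 libraries sharing 1 estimate of the spread (21 residual degrees of freedom), an intensity trend and two-sided tests, adjusted by Benjamini-Hochberg over all 15659 genes at a threshold of 0.05. The fit was tested on simulated data. Adding 1 TPM understates the change of low genes. Start sites came from RefSeq (GRCm38.p6) by symbol, and a peak counted when it overlapped the 500 bp on either side by at least 1 bp.

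Named genes were the 15 ranked in each direction, up to 6 called members of each list by p, defining markers and Tcf21. Others are said to have been named after their values were seen, and some items are not reported here. The comparison and the gene lists were chosen with earlier results of these data known. Alternatives covered the pseudocount, filter, scaling, libraries fitted, library weights, a replicate block, the genotype field and each library left out.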

Additional observations from a re-analysis of the deposited data

Results flagged for a closer look

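Within the 2 groups, 322 sets of values (a named gene in the 12-week or in the 1-week libraries) were searched for a library that stands apart from its group by Dixon's criterion. It was met in 32 of them, where chance gives about 1 in 20. That rate does not hold for genes at the floor: in 11 of the 32 every other library of the group was at 0, which meets the criterion by construction. No cause was tested.

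At 12 weeks replicate 4 held several of these values. It was the lowest for the mast cell genes Cma1 (3.34 TPM) and Tpsab1 (0.08 TPM), and the highest for Nt5e (0.59 TPM), Igf2 (1.10 TPM) and Wnt2b (1.23 TPM), which were at or near 0 in the others. Replicate 1 was the lowest for the matrix genes Eln (18.5 TPM) and Ogn (235 TPM) and for Creb5 (18.6 TPM), and the highest for Saa3 (365 TPM) and Lrrn4 (0.38 TPM). Replicate 2 was the lowest for Dlk1 (0 TPM) and the highest for Ighv2-6-8 (8 TPM), and replicate 5 the lowest for Ptprc (18.1 TPM).

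At 1 week replicate 2 was the highest for Mfap4 (893 TPM), Col6a6 (21.4 TPM), Ppp2r2b (21.4 TPM), Vav1 (1.46 TPM) and Trbc2 (0.79 TPM), and the lowest for P4ha2 (155 TPM). It was also the only 1-week library above 0 for Atp6v0d2 (0.05 TPM). Replicate 3 was the highest for Ccr7 (0.72 TPM), Il7 (1.18 TPM), Tpsb2 (1.28 TPM), Trac (1.72 TPM) and Serpinb2 (3.29 TPM). Replicate 4 was the highest for Cma1 (1.32 TPM), Cpa3 (1.73 TPM), S100a8 (3.89 TPM) and S100a9 (1.02 TPM), and the lowest for Sparc (8719 TPM). Replicate 1 was the lowest for Cd55 (516 TPM) and the highest for Ogn (1374 TPM).

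The change from 1 to 12 weeks differed between KO and WT libraries for 2 genes by the limma interaction term. The KO change minus the WT change was -4.77 on the log2 scale for Ighv2-6-8 and -2.66 for Lrrn4.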

How the results depend on the processing

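The count of 554 higher and 374 lower genes stayed within 1.5 times under a pseudocount of 0.1 TPM, 2 other filters, 3 other scalings and fits on the WT table or on the 9 libraries alone. With array weights it was 915 and 967, and with the libraries whose genotype field reads Tcf21 KO 352 and 146. With 1 library left out it was 408 to 612 higher and 242 to 447 lower. The 2 genes whose change differed between KO and WT became 0 with a pseudocount of 0.1 TPM, 14 with no filter, 0 when 5 TPM had to be reached in 4 libraries, 1 with the genotype-field libraries and 0 to 3 with 1 library left out. Tcf21 passed with array weights alone (-1.21, adjusted p = 0.028). The share with a start-site peak in all 4 ATAC-seq libraries was 48.7% to 52.1% for genes that rose and 88.6% to 91.1% for genes that fell over the peak alternatives.

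Same-numbered libraries did not visibly deviate together (correlations from -0.0261 to 0.0142 over genes, and from -0.0595 to 0.0783 for libraries with different numbers). No pairing by number was evident, though such correlations over all genes could miss a weak one. A replicate block, with 3 residual degrees of freedom, gave 189 higher and 85 lower genes.

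Of 125 called genes named in the text 45 kept their call and direction under every alternative that gave a value for them. With the genotype-field libraries 33 called genes lost their call. Among them were Cd55 (limma adjusted p = 0.0518), Fbln5 (0.0562), Cd74 (0.0679) and P4ha2 (0.108), which kept it with any 1 library left out. Besides Dpp4, Pi16 and Pdgfra, genes that did not pass did so in the 9-library fit (Cd79a, adjusted p = 0.0487), with array weights (Cd79a 0.0229, Col1a1 0.0326, Mrc1 0.043, Pecam1 0.0446) or with quantile normalization (Mrc1 0.0438). Changes of sign, all in genes that did not pass, were seen for Il6 (0.10 with median-ratio scaling, 0.028 with quantile normalization, 0.084 with the replicate block and -0.52 to 0.33 with 1 library left out), Pparg (0.10, 0.078, 0.10 with array weights, 0.16 with the genotype-field libraries and -0.32 to 0.22), Col4a1 (-0.17 with the block and -0.17 to 0.30), Col4a2 (0.025 with median-ratio scaling, 0.11 with the genotype-field libraries and -0.30 to 0.17) and Ccl2 (-0.067 with the genotype-field libraries). Ighv2-6-8 went to 0 with those libraries, and ranged from 0 to 0.79 with 1 library left out. The cause was not tested.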
